A study of Mus musculus with 12 samples.

Results

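Lymphatic vessel genes were taken as the rows of the deposited expression table named Prox1, Vegfc, Flt4, Lyve1, Pdpn and Stab1, which gave 6 of 54532 genes. They were followed through 12 libraries of mouse brain RNA, 3 in each of 4 groups. Samples of the control group carry PBS in their titles and untreated as their treatment. The other groups were collected 1.5 h, 12 h and 48 h after photodynamic therapy (PDT), in which mice were injected with 5-aminolevulinic acid (5-ALA) at 20 mg/kg and, 30 min later, exposed to a 635 nm laser at 20 J/cm2. Cells make the light-sensitive pigment protoporphyrin IX from 5-ALA. Whether control mice were injected or illuminated, their age and sex, the brain region and the number of animals are not given in the labels. BALB/c and C57BL/6 both appear there as strain. The p-values therefore measure the spread between libraries, which may be partly technical. Levels are in FPKM (fragments scaled by gene length and sequencing depth, deposited by the authors), so that genes of different length can be set side by side.

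Lymphatic vessels drain fluid and immune cells from tissues. In the head they run in the meninges and are absent from brain parenchyma in healthy animals. PROX1 is the transcription factor that specifies lymphatic endothelium, VEGF-C is the growth factor that drives its sprouting, and VEGFR-3, the product of Flt4, is the receptor for VEGF-C. LYVE1 is a hyaluronan receptor, podoplanin (Pdpn) a mucin-like membrane protein and stabilin-1 (Stab1) a scavenger receptor, all on the surface of lymphatic endothelial cells. Most of these genes are known outside lymphatic vessels as well: Prox1 in dentate granule neurons, some interneurons and oligodendrocyte lineage cells, Pdpn in meningeal cells and reactive astrocytes, Lyve1 and Stab1 in macrophages at the borders of the brain, and Flt4 in some blood endothelium.

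Pdpn and Stab1 were the members with the largest rises, 8.96 and 8.14 times the control mean at 48 h (7.59 and 5.09 times without 48 h replicate 1, the highest library for both). The 250 bases before their RefSeq start sites (build GRCm38.p6, written 5′ to 3′ on the strand of the gene) are shown because these members had the largest rises, with that of Vegfc, the ligand, which passed no test. The window of Flt4, which also rose, overlaps an annotated exon and is not printed. The windows are chr4:143299565-143299814 (minus strand) for Pdpn, chr14:31168642-31168891 (minus strand) for Stab1 and chr8:54077282-54077531 (plus strand) for Vegfc. None of these 3 windows overlaps an exon of the GENCODE M21 annotation. Capitals mark matches to any of 6 motifs searched on both strands: TGANTCA for AP-1, TTCNNNGAA for STAT factors, GAGGAAGT for PU.1, AACAAAG for SOX factors, GGGCGG for SP1 and the NF-kB motif.
Pdpn: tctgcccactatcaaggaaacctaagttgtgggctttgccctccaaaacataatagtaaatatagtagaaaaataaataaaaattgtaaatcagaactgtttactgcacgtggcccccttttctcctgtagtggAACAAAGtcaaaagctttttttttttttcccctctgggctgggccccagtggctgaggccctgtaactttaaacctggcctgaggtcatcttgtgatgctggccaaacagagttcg
Stab1: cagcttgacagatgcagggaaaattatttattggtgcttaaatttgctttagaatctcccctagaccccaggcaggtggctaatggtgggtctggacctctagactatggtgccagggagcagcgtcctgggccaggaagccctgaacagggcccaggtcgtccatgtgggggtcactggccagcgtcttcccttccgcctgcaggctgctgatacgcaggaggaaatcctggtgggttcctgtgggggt
Vegfc: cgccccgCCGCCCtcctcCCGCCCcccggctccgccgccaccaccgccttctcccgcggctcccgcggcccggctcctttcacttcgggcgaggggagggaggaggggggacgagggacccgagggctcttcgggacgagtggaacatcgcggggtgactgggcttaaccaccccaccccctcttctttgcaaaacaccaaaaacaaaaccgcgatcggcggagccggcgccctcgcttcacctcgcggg

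The window of Pdpn held 1 match, to the SOX motif, at -116 to -110 from the start site, and the Stab1 window held none. In Vegfc the matches were 2 SP1 motifs on the opposite strand. Over all 32851 windows of the same length in the RefSeq table, 5.03% held the SOX motif, 32.7% the SP1 motif, 6.75% the AP-1 motif, 7.02% the STAT motif, 1.41% the NF-kB motif and 2.44% the PU.1 motif. These matches describe letters only and were not tested as binding sites. G and C made up 43.2% of the Pdpn window, 57.2% of that of Stab1 and 71.6% of that of Vegfc, against a median of 52.4% over all windows. The table had windows for 5 of the 6 members.

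The genes were first placed by level. In controls Prox1 (2.55 ± 1.22 FPKM, SD, n = 3) and Pdpn (2.42 ± 0.110 FPKM) lay highest, followed by Stab1 (0.884 ± 0.134 FPKM), Vegfc (0.771 ± 0.0208 FPKM), Flt4 (0.451 ± 0.0697 FPKM) and Lyve1 (0.0920 ± 0.109 FPKM). Prox1 overlapped Pdpn and Stab1 overlapped Vegfc across control libraries, and the other neighbours in that order did not overlap. At 48 h the order had become Pdpn (21.7 ± 6.04 FPKM), Stab1 (7.19 ± 4.78 FPKM), Prox1 (4.02 ± 0.826 FPKM), Vegfc (0.826 ± 0.0808 FPKM), Flt4 (0.754 ± 0.297 FPKM) and Lyve1 (0.147 ± 0.0623 FPKM), with overlaps between Stab1 and Prox1 and between Vegfc and Flt4. Lyve1 was lowest in all 4 groups.

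**Figure D1:**
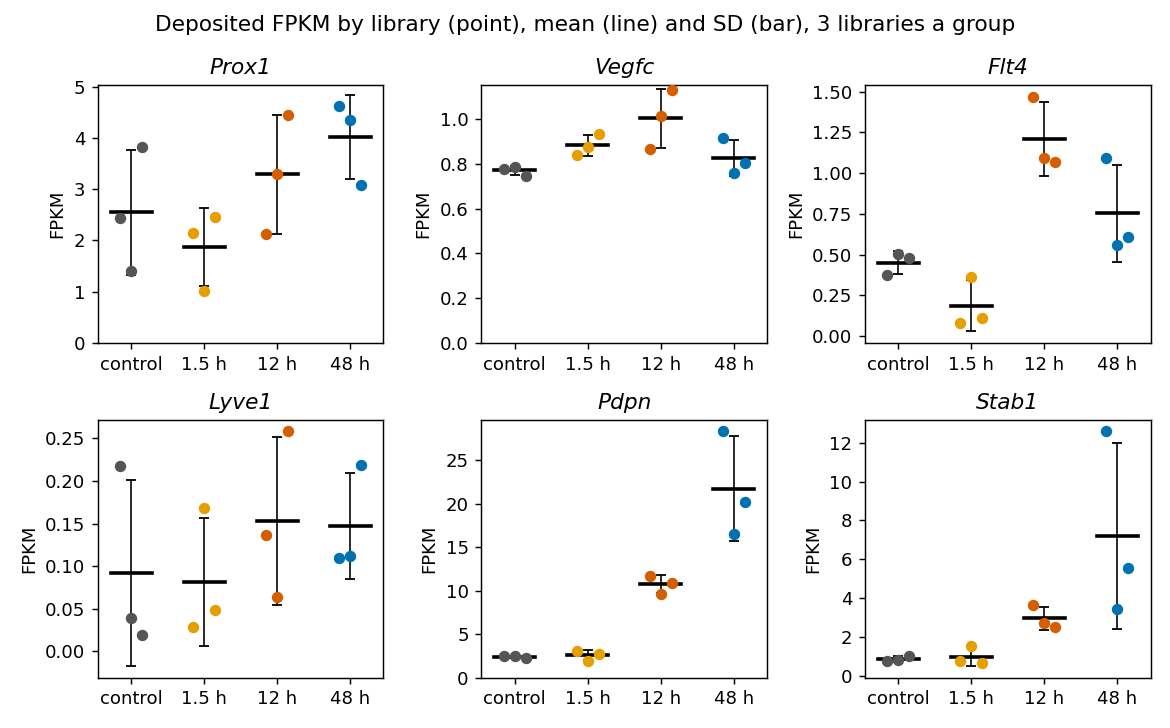
Deposited FPKM (y axis, a separate scale for each gene) of the 6 members in control libraries and 1.5 h, 12 h and 48 h after PDT (x axis). Points are libraries, lines are means and bars are SD of 3 libraries; the Pdpn libraries at 12 h and 48 h all lie above the controls, while the Lyve1 libraries of all groups overlap below 0.26 FPKM.

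Changes were tested on log2(FPKM + 1) with limma, fitted to 17664 genes that were above 0.5 FPKM in at least 3 libraries, and p-values were adjusted by Benjamini-Hochberg over all of them. Genes below an adjusted p of 0.05 are said to have risen or fallen, and each log2 change has its standard error (SE). This scale understates changes of genes near 0. Of the members, 5 of 6 passed the filter. Flt4 did so with 7 libraries, which were those at 12 h and 48 h and control replicate 2, at 0.502 FPKM. It was thus tested mainly through the groups where it was high. Lyve1, above 0.5 FPKM in 0 libraries, was not tested. In the overall test of the 4 groups, Pdpn (adjusted p = 6.66e-06), Stab1 (adjusted p = 0.00267) and Flt4 (adjusted p = 0.00434) passed, as did 38.4% of all genes tested, and Prox1 (adjusted p = 0.122) and Vegfc (adjusted p = 0.400) did not.

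At 1.5 h after PDT, 0 of the 5 tested members had changed, where 0.555% of all genes tested had and 0.419% had risen (limma). None of the 5 had an unadjusted p below 0.05, the lowest being 0.0658 for Flt4, and 0 passed with limma voom on reads recovered from the FPKM values. At 12 h Pdpn, Stab1 and Flt4 rose, 3 of 5, where 13.3% of all genes tested rose and 21.2% changed in either direction. Pdpn and Stab1 rose at 48 h, 2 of 5, where 7.50% of all genes tested rose and 12.5% changed. None of the 5 fell at any time against control, where 0.136%, 7.90% and 5.01% of all genes did at 1.5 h, 12 h and 48 h. Between times, Pdpn, Stab1 and Flt4 rose from 1.5 h to 12 h, where 33.2% of all genes tested changed, 16.9% upward and 16.3% downward. From 1.5 h to 48 h the 3 called members were again Pdpn, Stab1 and Flt4, where 17.8% of all genes changed, 8.91% upward and 8.87% downward. From 12 h to 48 h Pdpn was the 1 member called, where 15.6% of all genes changed, 5.88% upward and 9.73% downward. The median change over the 5 against control was 0.05, 0.60 and 0.54 at 1.5 h, 12 h and 48 h, and that over all genes tested was between -0.02 and 0.02 in all 6 comparisons of groups.

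**Figure D2:**
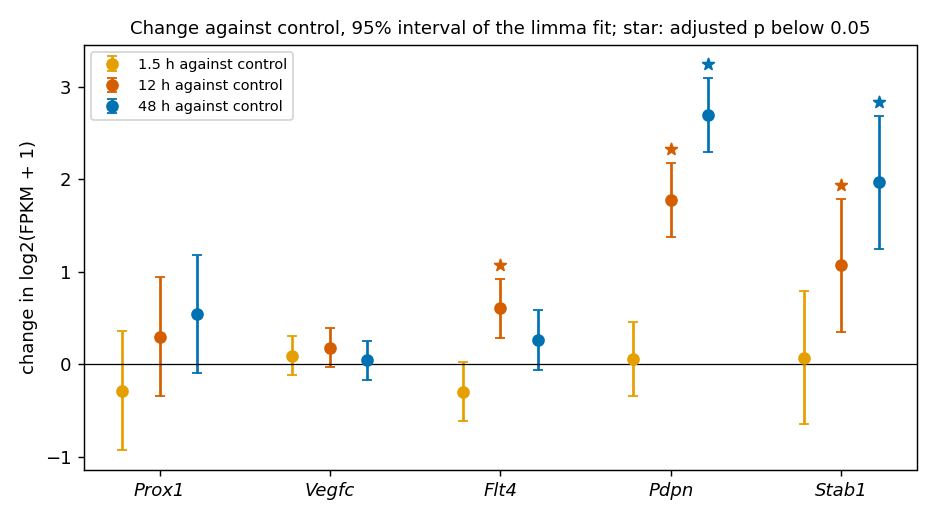
Change in log2(FPKM + 1) against control (y axis) of the 5 tested members (x axis) at 1.5 h, 12 h and 48 h after PDT. Points are limma estimates from 3 libraries a group, bars are 95% intervals and stars mark an adjusted p below 0.05; Pdpn is at 1.77 and 2.70 and Stab1 at 1.07 and 1.96 at 12 h and 48 h, while the intervals of Prox1 and Vegfc cross 0 at every time.

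Prox1, the transcription factor, is on chromosome 1 (190118035 to 190170714, minus strand, ENSMUSG00000010175). Its levels were 2.43, 1.40 and 3.83 FPKM in control replicates 1, 2 and 4 and 2.14, 1.01 and 2.45 FPKM in 1.5 h replicates 1, 2 and 3. At 12 h it had 2.13 and 3.30 FPKM in replicates 1 and 2 and 4.45 FPKM in the library whose column carries a number that no sample title has, called the unnumbered library here. At 48 h it had 4.63, 4.34 and 3.08 FPKM in replicates 1, 3 and 4. The libraries of each PDT group overlapped those of the controls, and the control libraries alone differed by more than the group means did. The log2 changes of Prox1 were -0.29 ± 0.29, 0.29 ± 0.29 and 0.54 ± 0.29 at 1.5 h, 12 h and 48 h (SE; limma adjusted p = 0.504, 0.534 and 0.274), and the 95% interval at 48 h ran from -0.10 to 1.19. The 48 h libraries all lay above the 1.5 h libraries, but that difference did not pass either (0.83 ± 0.29, adjusted p = 0.0724).

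Markers of other cells that use Prox1 were counted beside it. Of the 6 tested markers of dentate granule neurons, 0 rose and 1, Stxbp6, fell at 48 h (limma), where 5.01% of all genes tested fell, and 0 changed at 1.5 h or 12 h. Their summed level ran from 23.1 to 34.1 FPKM in controls and from 25.3 to 30.8 FPKM at 48 h. The summed level of 6 interneuron markers of the caudal ganglionic eminence was 81.5 to 111 FPKM in controls and 48.6 to 64.7 FPKM at 48 h. Of these, 1 fell at 48 h, Lamp5, where 5.01% of all genes tested fell. Much of the control sum was Lamp5, which averaged 56.3 FPKM in controls and 15.7 FPKM at 48 h. The median log2 difference of the list from the control mean was -0.17, 0.04 and -0.14 in 48 h replicates 1, 3 and 4. Of 6 markers of oligodendrocyte precursors, Olig2 and Sox10 rose at 12 h and Olig2 at 48 h, where 13.3% and 7.50% of all genes tested rose. The summed level of the 6 was 94.0 to 112 FPKM in controls and 130 to 191 FPKM at 48 h. Most of it was Olig1, which averaged 63.4 and 105 FPKM in these groups and did not pass. Pdgfra, Cspg4 and Gpr17 did not pass either, at 4.53, 1.63 and 11.8 FPKM in controls and 4.96, 2.25 and 9.34 FPKM at 48 h. The part of these cells in the Prox1 levels was not tested. In tissue RNA, more cells of a type and more RNA per cell cannot be told apart. Prox1 is overlapped by an antisense gene, Prox1os, which ran from 0.161 to 5.07 FPKM and shares 133 of the 8390 exonic bases of Prox1, or 1.59%; whether reads were counted by strand is not given in the sources used here.

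Vegfc, the ligand, is on chromosome 8 (54077606 to 54187096, plus strand, ENSMUSG00000031520) and varied least. It was at 0.778, 0.787 and 0.747 FPKM in control replicates 1, 2 and 4, which rest on 32 to 34 reads per library. It was at 0.840, 0.875 and 0.934 FPKM in 1.5 h replicates 1, 2 and 3, at 0.868, 1.01 and 1.13 FPKM in 12 h replicates 1 and 2 and the unnumbered library, and at 0.915, 0.758 and 0.804 FPKM in 48 h replicates 1, 3 and 4. The libraries at 1.5 h and 12 h all lay above the controls, and those at 48 h overlapped them. None of these differences passed: the log2 changes were 0.09 ± 0.10, 0.18 ± 0.10 and 0.04 ± 0.10 (limma adjusted p = 0.537, 0.232 and 0.824). The 95% intervals, -0.12 to 0.30 at 1.5 h, -0.04 to 0.39 at 12 h and -0.17 to 0.25 at 48 h, leave no room for a doubling of (FPKM + 1) at any time.

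Flt4, the receptor, is on chromosome 11 (49609263 to 49652739, plus strand, ENSMUSG00000020357). It rose at 12 h. Its levels were 0.372, 0.502 and 0.479 FPKM in control replicates 1, 2 and 4 and 1.47, 1.09 and 1.07 FPKM in 12 h replicates 1 and 2 and the unnumbered library. The 12 h libraries all lay above all controls, with a mean 2.68 times the control mean and a log2 change of 0.60 ± 0.15 (limma adjusted p = 0.0138). That call was lost without control replicate 1 (0.56, adjusted p = 0.0569) and without 12 h replicate 1 (0.52, adjusted p = 0.0547). With limma voom on recovered reads, which has no added 1, the change was 1.41.

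At 1.5 h Flt4 was at 0.0800, 0.364 and 0.113 FPKM in replicates 1, 2 and 3, or 8, 49 and 13 reads, all below the lowest control, though the difference did not pass (-0.30 ± 0.15, adjusted p = 0.182). Replicates 1 and 3, where Flt4 was lowest, are the libraries with 12.4% and 9.14% of reads on mitochondrial genes, against 4.16% to 6.14% in the other 10 libraries. In values corrected for each library's trend with gene length the change at 1.5 h was -0.18, and the part of library composition in it was not tested further. At 48 h Flt4 was at 1.10 FPKM in replicate 1 and at 0.557 and 0.608 FPKM in replicates 3 and 4, above all controls but without passing (0.26 ± 0.15, adjusted p = 0.293). Without 48 h replicate 1 the change was 0.13.

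Several blood endothelial markers rose at 12 h, as Flt4 did. At 1.5 h none of the markers passed (limma), where 0.555% of all genes tested changed. Their summed level, most of it Cldn5 and Ly6c1 (13.8 and 17.3 FPKM on average at 1.5 h), then lay within the range of controls. Their median log2 difference from the control mean was -0.22, 0.16 and -0.24 in 1.5 h replicates 1, 2 and 3. Flt4 was likewise lowest in replicates 1 and 3. Of 8 such markers, 4 rose at 12 h (limma), where 13.3% of all genes tested rose: Cldn5, Pecam1, Cdh5 and Esam. At 48 h 2 of the 8 rose, where 7.50% of all genes did. Pecam1, an adhesion molecule between endothelial cells, went from 1.79 ± 0.310 to 8.03 ± 0.467 FPKM (SD, n = 3), and Cdh5, the cadherin of endothelial junctions, from 1.85 ± 0.393 to 10.5 ± 4.06 FPKM, which are 4.48 and 5.68 times the control means. The summed level of the 8 was 43.9 to 54.1 FPKM in controls, 45.1 to 51.2 FPKM at 1.5 h, 87.4 to 96.3 FPKM at 12 h and 85.6 to 118 FPKM at 48 h, the highest in 48 h replicate 1, which also had the highest Flt4 of its group. In the 48 h group replicate 1 also had the highest sums of choroid plexus, reactive astrocyte and smooth muscle markers. That match was thus not particular to blood endothelium. The part of blood endothelium in the Flt4 level was not tested.

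Lyve1, a surface receptor for hyaluronan, is on chromosome 7 (110850607 to 110863239, minus strand, ENSMUSG00000030787) and was barely detected. Control replicates 1, 2 and 4 had 0.218, 0.0388 and 0.0196 FPKM, or 11, 2 and 1 reads, and the 1.5 h replicates 1, 2 and 3 had 1, 8 and 2 reads. There were 6, 3 and 12 reads in 12 h replicates 1 and 2 and the unnumbered library, and 6, 6 and 12 in 48 h replicates 1, 3 and 4. All groups overlapped. Summed over 3 libraries, controls had 14 reads (exact Poisson 95% interval 7.65 to 23.5, counting error only) and the 48 h group had 24 (15.4 to 35.7). These counting intervals overlap. With no filter on low values, the log2 change at 48 h was 0.07 ± 0.09 (limma adjusted p = 0.772).

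Other defining genes of lymphatic endothelium were at or near 0. Ccl21a, the chemokine by which lymphatic vessels attract dendritic cells, was listed at 0 in all 12 libraries. It has close copies in the genome, and how shared reads were counted is not given in the sources used here. Mmrn1, which encodes multimerin-1, had at most 2 reads in any library and was listed at 0 in 9 of 12. Of the 6 lymphatic endothelial markers, which include 4 members, 3 passed the filter. Their summed level was 4.43 to 6.63 FPKM in controls and 21.5 to 34.2 FPKM at 48 h, and Pdpn alone gave 2.30 to 2.49 and 16.5 to 28.4 FPKM of it. The data thus hold rises of Pdpn, Stab1 and Flt4 beside Lyve1, Ccl21a and Mmrn1 at or near 0 in every group.

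Pdpn, which encodes podoplanin, is on chromosome 4 (143267431 to 143299564, minus strand, ENSMUSG00000028583) and had the largest rise of the 6. It was at 2.48, 2.49 and 2.30 FPKM in control replicates 1, 2 and 4 and at 3.08, 1.95 and 2.71 FPKM in 1.5 h replicates 1, 2 and 3. It reached 11.7, 9.61 and 10.9 FPKM in 12 h replicates 1 and 2 and the unnumbered library, and 28.4, 16.5 and 20.2 FPKM in 48 h replicates 1, 3 and 4. The 1.5 h libraries overlapped the controls, every 12 h library lay above them, and every 48 h library lay above every 12 h library. The mean was 4.43 times that of controls at 12 h and 8.96 times at 48 h. Log2 changes were 0.05 ± 0.18 at 1.5 h (limma adjusted p = 0.859), 1.77 ± 0.18 at 12 h (adjusted p = 8.3e-05) and 2.70 ± 0.18 at 48 h (adjusted p = 7.3e-06). The further rise from 12 h to 48 h passed as well (0.92 ± 0.18, adjusted p = 0.00619).

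Reactive astrocyte markers moved with Pdpn. All 9 of the list rose at 12 h and at 48 h (limma), where 13.3% and 7.50% of all genes tested rose. Lcn2, Osmr, Emp1 and Cd109 were above 0.5 FPKM in 12 h and 48 h libraries only, with at most 0.340 FPKM elsewhere. They were thus tested only because they were high there, and the filter favoured their calls. Gfap, the filament protein of astrocytes and also 1 of the 9, was at 20.3 ± 6.97 FPKM in controls, 162 ± 19.2 FPKM at 12 h and 534 ± 97.2 FPKM at 48 h. The summed level of the 9 was 27.6 to 53.8 FPKM in controls, 22.6 to 79.1 FPKM at 1.5 h, 250 to 330 FPKM at 12 h and 682 to 1049 FPKM at 48 h. Among the 48 h libraries, replicate 1 had the highest and replicate 3 the lowest value of both Pdpn and this sum. Summed markers of choroid plexus, blood endothelium, smooth muscle, border-associated macrophages and infiltrating monocytes shared that order. Those of meningeal fibroblasts, microglia and oligodendrocyte precursors were highest in replicate 1 but lowest in replicate 4, and those of neurons were lowest in replicate 1. The match was thus not particular to astrocytes. Of 9 tested markers of meningeal fibroblasts, 1 rose at 12 h and 4 at 48 h, with summed levels of 19.1 to 23.4 FPKM in controls, 29.5 to 39.4 FPKM at 1.5 h, 24.0 to 27.3 FPKM at 12 h and 61.3 to 86.6 FPKM at 48 h. Most of this sum was Igfbp2, which averaged 17.2 FPKM in controls, 32.6 FPKM at 1.5 h and 55.5 FPKM at 48 h. At 1.5 h 0 of the 9 changed, and their median log2 change was -0.19. Of 8 tested choroid plexus markers, 0 changed at 1.5 h, 12 h or 48 h against control (limma), where 0.555%, 21.2% and 12.5% of all genes tested changed. Their sum ran from 426 to 673 FPKM in controls and from 3.18 to 444.5 FPKM at 1.5 h, where Pdpn overlapped the controls. In controls nearly all of this sum was Ttr, which averaged 524.5 FPKM there and ran from 1.96 to 439 FPKM at 1.5 h. The part of these cells in the Pdpn level was not tested.

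**Figure D3:**
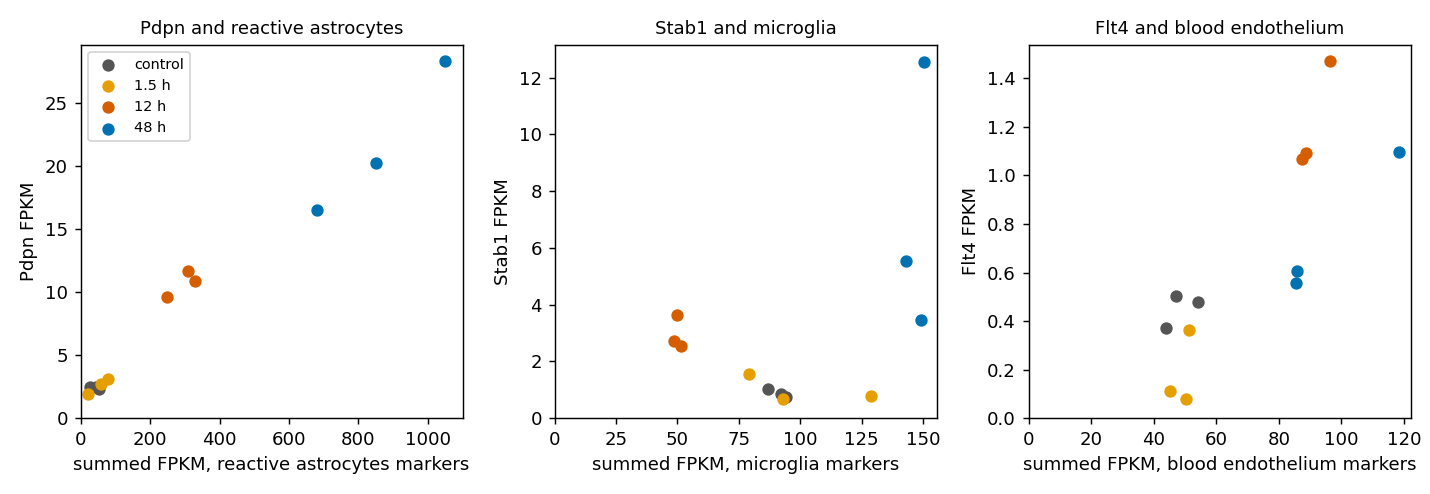
FPKM of Pdpn, Stab1 and Flt4 (y axes, left to right) against the summed FPKM of reactive astrocyte, microglia and blood endothelium markers, respectively (x axes), 1 point per library, coloured by group. The 48 h libraries are highest for Pdpn and for reactive astrocyte markers, and the 12 h libraries have Stab1 above and microglia markers below the controls.

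Stab1, which encodes stabilin-1, a receptor that clears modified lipoproteins and other ligands, is on chromosome 14 (31139013 to 31168641, minus strand, ENSMUSG00000042286). It was at 0.764, 0.859 and 1.03 FPKM in control replicates 1, 2 and 4 and at 0.792, 1.56 and 0.681 FPKM in 1.5 h replicates 1, 2 and 3. It was at 3.64, 2.73 and 2.55 FPKM in 12 h replicates 1 and 2 and the unnumbered library and at 12.6, 3.45 and 5.56 FPKM in 48 h replicates 1, 3 and 4. All 12 h and 48 h libraries lay above all controls, and the 48 h libraries differed from one another by more than those of any other group. The mean was 3.37 times that of controls at 12 h and 8.14 times at 48 h, or 5.09 times without 48 h replicate 1. Log2 changes were 0.07 ± 0.33 at 1.5 h (limma adjusted p = 0.898), 1.07 ± 0.33 at 12 h (adjusted p = 0.0386) and 1.96 ± 0.33 at 48 h (adjusted p = 0.00271).

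The call at 12 h was lost without any 1 of the 6 control and 12 h libraries, with adjusted p up to 0.122, and also without 48 h replicate 4 (adjusted p = 0.0533), while the change stayed between 0.95 and 1.15. The call at 48 h held without 48 h replicate 1 (1.52, adjusted p = 0.00224). The difference between 48 h and 12 h did not pass (0.90 ± 0.33, adjusted p = 0.0890), and did without 48 h replicate 3 (1.26, adjusted p = 0.022). Stab1 shares 112 of its 10288 exonic bases, or 1.09%, with Nt5dc2 on the other strand, which ran from 1.18 to 7.92 FPKM.

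Markers of the phagocytes that use Stab1 moved in different ways. Of 10 markers of border-associated macrophages, 2 passed the filter, and of these Siglec1, a sialic acid-binding receptor, rose at 48 h, from 0.0615 ± 0.0250 to 0.509 ± 0.00579 FPKM (SD, n = 3; limma). Siglec1 passed the filter only through the 48 h libraries, with at most 0.141 FPKM elsewhere, so the filter largely fixed that call. The summed level of the list was 1.25 to 1.61 FPKM in controls, 1.21 to 5.83 FPKM at 1.5 h, 1.31 to 3.62 FPKM at 12 h and 2.15 to 8.64 FPKM at 48 h, highest in replicate 1. Pf4 alone gave 5.02 FPKM of it in 1.5 h replicate 1, where Stab1 was at 0.792 FPKM, and 5.48 FPKM in 48 h replicate 1. The median log2 difference of the list from the control mean was 0.28, -0.02 and -0.01 in 48 h replicates 1, 3 and 4. In 48 h replicate 1 Mrc1, the mannose receptor of these macrophages, was at 0.888 FPKM, against 0.163 and 0.142 FPKM in replicates 3 and 4. Choroid plexus markers summed to 999.9 FPKM there, against 33.7 and 130.5 FPKM, and most of these sums was Ttr (31.0 to 978 FPKM at 48 h). Of 8 microglia markers, 7 fell at 12 h and 3 rose at 48 h, where 7.90% of all genes tested fell and 7.50% rose, respectively. Their summed levels were 86.9 to 94.2 FPKM in controls, 48.5 to 51.5 FPKM at 12 h and 143 to 150.5 FPKM at 48 h. Of 6 markers of infiltrating monocytes, 2 passed the filter. Vcan rose at both times and Arg1 at 48 h, and the summed level was 1.61 to 2.13 FPKM in controls and 3.86 to 6.31 FPKM at 48 h. Arg1 passed the filter only through 12 h and 48 h libraries, with at most 0.229 FPKM elsewhere. Vcan alone averaged 1.51 FPKM in controls and 2.86 FPKM at 48 h, and it is also on the hyaluronan list below. The part of these cells in the Stab1 level was not tested. Stab2, the paralog of Stab1, averaged below 0.5 FPKM in every group (0.137 FPKM in controls, 0.345 FPKM at 12 h and 0.151 FPKM at 48 h) and was not tested.

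Genes whose pattern lay nearest to that of each member that passed the overall test were found by the root mean square difference of log2(FPKM + 1), centred on the control mean, over 12 libraries. For Pdpn these were Tagln2, an actin-binding protein (0.16), Clcf1, a cytokine of the interleukin-6 family (0.16), and C3ar1, the receptor for complement fragment C3a (0.25). For Stab1 they were A2m, a protease inhibitor (0.23), Crct1 (0.30) and Fcgr2b, an inhibitory Fc receptor (0.33). For Flt4 they were Swap70 (0.07), Lbr, the lamin B receptor (0.10), and Nras, a small GTPase (0.10). Tagln2 was at 3.79 FPKM in controls, 4.42 FPKM at 1.5 h, 14.1 FPKM at 12 h and 31.3 FPKM at 48 h.

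Other genes of lymphatic growth were taken from a list of 40, of which 31 passed the filter. At 12 h 9 rose and 1 fell, where 13.3% of all genes tested rose and 7.90% fell. At 48 h 8 rose and 2 fell, where 7.50% and 5.01% of all genes did, and 5 of the 8 had also risen at 12 h (Adm, Angpt2, Pdgfb, Fgf2 and Nfatc1). At 1.5 h 1 fell and 0 rose, where 0.136% of all genes tested fell and 0.419% rose. The list's median change was -0.21, 0.31 and 0.36 at 1.5 h, 12 h and 48 h. Without 1.5 h replicate 2, which leaves the 1.5 h libraries rich in mitochondrial reads, 12 of 31 (38.7%) were called at 1.5 h, below the 45.7% of all genes tested (8071) called in the same fit.

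Among ligands and their processing factors, 4 of 8 tested rose at 12 h and the same number at 48 h, each time Adm, Angpt2, Pdgfb and Fgf2. Of all genes tested, 13.3% rose at 12 h and 7.50% at 48 h. Angpt2, a ligand of the TIE2 receptor, was at 0.295 ± 0.179 FPKM in controls, 9.05 ± 0.690 FPKM at 12 h and 1.23 ± 0.185 FPKM at 48 h, changes of 2.96 ± 0.16 and 0.79 ± 0.16 in log2 (limma, adjusted p = 1.8e-06 and 0.00898). Adm, the peptide adrenomedullin, was at 1.08 ± 0.397, 10.8 ± 2.25 and 4.69 ± 1.10 FPKM in the same groups (changes of 2.51 ± 0.22 and 1.45 ± 0.22, adjusted p = 3.4e-05 and 0.00158). Vegfd, the other ligand of VEGFR-3, had control, 12 h and 48 h levels of 0.539 ± 0.102, 0.319 ± 0.0914 and 0.269 ± 0.0846 FPKM, and the differences did not pass (-0.22 ± 0.15 and -0.28 ± 0.15, adjusted p = 0.350 and 0.285). Of the genes whose products mature VEGF-C, Adamts3 did not pass at any time, and Ccbe1 and Adamts14 were below the filter.

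Of 10 receptors on the list, 3 rose at 12 h: Kdr, Nrp2 and Piezo1. Kdr, or VEGFR-2, the main receptor for VEGF-A, went from 1.02 ± 0.0538 FPKM to 2.29 ± 0.311 FPKM (0.70 ± 0.22, adjusted p = 0.0415). Nrp2, a co-receptor for VEGF-C, was at 2.03 ± 0.792 and 4.54 ± 0.581 FPKM (0.90 ± 0.22, adjusted p = 0.0145), and Piezo1, a mechanically gated channel, rose by 1.28 ± 0.26 in log2 (adjusted p = 0.00564). At 48 h Met, the receptor for hepatocyte growth factor, was the receptor that rose, where 7.50% of all genes tested rose. Kdr and Flt4 thus both rose at 12 h in these libraries, as did 13.3% of all genes tested.

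Of 8 transcription factors, 6 passed the filter. Sox18, which acts upstream of Prox1 in lymphatic development, fell at 1.5 h, from 3.41 ± 0.270 to 1.20 ± 0.289 FPKM (-1.01 ± 0.17, adjusted p = 0.0302); in 12 of 20 alternatives no gene of the list was called at 1.5 h, so this call was lost there. Sox18 rose at 48 h, to 6.87 ± 1.31 FPKM (0.82 ± 0.17, adjusted p = 0.00847). Nfatc1, a factor of valve formation, rose at 12 h and 48 h, and Hhex rose at 48 h. Foxc2, another valve factor, was at 0.0563 FPKM in controls and was not tested. Of 12 markers and effectors, 7 passed the filter. Fat4, an atypical cadherin needed for lymphatic morphogenesis, rose at 12 h, from 0.726 ± 0.209 to 2.68 ± 0.141 FPKM, and was at 0.465 ± 0.1196 FPKM at 48 h. Ackr2, a receptor that scavenges chemokines, fell at 12 h (-0.73 ± 0.23, adjusted p = 0.0446), and Efnb2, an ephrin, and Sema3a, a repulsive guidance factor, fell at 48 h (-0.78 ± 0.23 and -0.75 ± 0.21, adjusted p = 0.0451 and 0.0413). Clec1b, the platelet receptor for podoplanin, had at most 4 reads in any library.

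**Figure D4:**
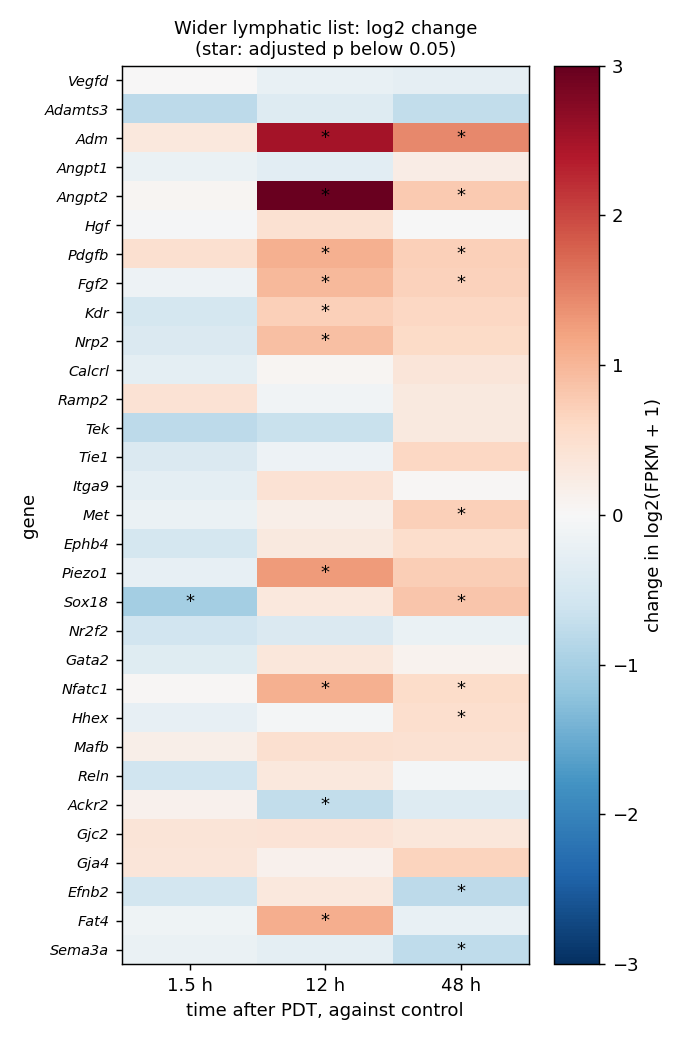
Change in log2(FPKM + 1) against control (colour) of the 31 tested genes of the wider lymphatic list (y axis) at 1.5 h, 12 h and 48 h after PDT (x axis). Stars mark an adjusted p below 0.05; Angpt2 and Adm are the darkest at 12 h, at 2.96 and 2.51, and Sox18 is starred as lower at 1.5 h and as higher at 48 h.

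Genes of hyaluronan, the matrix sugar that LYVE1 binds, were listed as well, and 10 of 11 passed the filter. At 12 h 3 rose and 1 fell (limma), where 13.3% of all genes tested rose and 7.90% fell. At 48 h again 3 rose and 1 fell, where 7.50% and 5.01% of all genes did. Cd44, the hyaluronan receptor related to LYVE1, was at 0.302 ± 0.111 FPKM in controls, 4.36 ± 1.25 FPKM at 12 h and 11.3 ± 2.90 FPKM at 48 h (2.02 ± 0.21 and 3.21 ± 0.21, adjusted p = 9.4e-05 and 7.3e-06). Cd44 is also on the reactive astrocyte list, and Vcan on that of infiltrating monocytes. Has2, a hyaluronan synthase, had 1 to 4 reads in control libraries and 68 to 103 at 48 h, when it reached 1.06 ± 0.216 FPKM (0.98 ± 0.12, adjusted p = 0.000295). Has2 was above 0.5 FPKM in the 48 h libraries only, with at most 0.468 FPKM elsewhere, so it was tested only because it was high there. The filter thus largely fixed its call, which is 1 of the 3 rises counted at 48 h. Vcan, a proteoglycan that binds hyaluronan, rose at both times (0.55 ± 0.14 and 0.61 ± 0.14), Tmem2, a cell surface hyaluronidase, rose at 12 h (0.42 ± 0.12), and Hapln1, a link protein, fell at both (-0.91 ± 0.14 and -0.86 ± 0.14, adjusted p = 0.00116 and 0.00261). Lyve1 itself was near 0 in the same libraries.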

How the data were processed

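The deposited table held FPKM values made by the authors for 54532 genes, with gene length in bases, per the file headers. The submitters' processing notes name Bowtie 0.12.2 and build mm8; counting tool, annotation and strandedness are not given in the sources used here. Of 54495 identifiers shared with GENCODE M21, 98.33% matched it in start and end, and GRCm38 positions are printed. Multiplied by length, 100% of values were whole multiples of 1 step (tolerance 0.05), giving 15348579 to 17444654 recovered reads per library. The authors' scaling was kept. Of the 12 columns, 1 of the 12 h group matched no title and was used without a replicate number.

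Genes above 0.5 FPKM in at least 3 libraries were tested on the log2(FPKM + 1) scale in R 4.3.3 with limma 3.58.1 (mean-variance trend, 1 fit of 4 groups, 8 residual and 3.09 prior degrees of freedom), which was first tested on simulated data. Replicate pairs within groups differed by 8.31 to 293 times counting variance. Alternatives were another pseudocount, no filter, only the groups compared, quantile normalization, a length correction, limma voom on recovered reads, a replicate block and leaving out libraries. The 6 members and the gene lists were chosen with earlier results of these data known. Members were all named, with the 3 largest rises and falls past the threshold of each list in each comparison with control and the 3 genes nearest in pattern; other genes were named where all changed genes of a list are given or as markers.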

Additional observations from a re-analysis of the deposited data

Results flagged for a closer look

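Several members differed between times after PDT, which tests whether their changes against the shared controls differed (limma, Benjamini-Hochberg adjusted p over all genes tested, 3 libraries a group). Pdpn was higher at 12 h than at 1.5 h by 1.72 in log2 (adjusted p = 0.00014), at 48 h than at 12 h by 0.92 (adjusted p = 0.0062) and at 48 h than at 1.5 h by 2.64 (adjusted p = 8.3e-06), and the libraries of the groups did not overlap in any of these pairs. Stab1 was higher than at 1.5 h by 1 at 12 h (adjusted p = 0.037) and by 1.89 at 48 h (adjusted p = 0.0032), again with no overlap; the call at 12 h was lost in 13 of 20 alternatives, with adjusted p up to 0.4112. Flt4 was higher than at 1.5 h by 0.90 at 12 h (adjusted p = 0.0016) and by 0.56 at 48 h (adjusted p = 0.024), with no overlap. Of all genes tested, 33.2%, 15.6% and 17.8% changed between 1.5 h and 12 h, 12 h and 48 h, and 1.5 h and 48 h.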

How the results depend on the processing

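The overall test called 3 members in 18 of 19 alternatives and 2 with the replicate block. The count of changed members was 0 at 1.5 h and 2 at 48 h under all 20 alternatives run. At 12 h it was 3, and 1 with the replicate block and 1 to 3 when libraries were left out in turn. Over the 20 alternatives, Stab1 lost its call at 12 h in 9 and Flt4 in 3. The cause was not tested. From 12 h to 48 h the count was 1, then 0 with the replicate block and 1 to 2 with libraries left out. From 1.5 h to 48 h it was 3, then 1 with only the groups compared in the fit, 1 with replicate 2 alone as the 1.5 h group, whose spread is then taken from the other groups, and 2 to 3 with libraries left out. For the wider list the count at 1.5 h was 1, then 0 with no filter, with only the groups compared, with voom, with the replicate block and with replicate 2 alone, and 0 to 12 with libraries left out; the 12 came without 1.5 h replicate 2, where 45.7% of all genes tested were called. At 12 h that list had 10 changed genes, 5 with the replicate block and 7 to 13 with libraries left out. At 48 h it had 10, then 6 with no filter, 1 with the replicate block and 5 to 12 with libraries left out. Replicate numbers were not treated as pairs: deviations of 11 same-numbered pairs correlated across genes at -0.26 to 0.16 (median -0.004). With the block, which costs residual degrees of freedom, Pdpn kept its calls against control, and Flt4 (0.61, adjusted p = 0.11) and Stab1 (1.07, adjusted p = 0.13) lost theirs at 12 h.

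Of 600 single-gene values, 559 kept direction and side of the threshold, 34 lost a call, 2 gained one and 5 changed sign, none of the 5 past the threshold. Vegfc changed sign under quantile normalization at 48 h (-0.0104) and from 1.5 h to 12 h (-0.0747). At 1.5 h Pdpn did with replicate 2 alone (-0.21) and without replicate 1 (-0.0472), and Stab1 without replicate 2 (-0.1157); with libraries left out in turn these ran up to 0.1858 for Pdpn and 0.1876 for Stab1. Without 1.5 h replicates 1 or 3, or 48 h replicate 1, Flt4 lost its call from 1.5 h to 48 h, with adjusted p up to 0.0809. Stab1 from 1.5 h to 12 h lost its call without any of 9 of the 12 libraries in turn and with no filter (adjusted p = 0.0729), quantile normalization (0.064), the replicate block (0.1947) and replicate 2 alone (0.4112). Lyve1 had 1 to 12 reads per library, which limits it to a description.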
